A study of Homo sapiens with 29 samples.

Results

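SOX4, SOX5, SOX6, SOX8, SOX9 and SOX11 are 6 transcription factor genes of the SOX family, followed here in LHCN-M2, an immortalized line of human myoblasts, after knockdown of the zinc finger factor ZNF148. They were 6 of the 22439 genes that a RefSeq accession on the array names, and 5 of them had a tested probe, meaning a probe well above background on at least 2 arrays. SOX8 was chosen by its measured value, as 1 of the strongest rises at 24 h after siZNF148, so its value there is a description with no test. The other 5 genes are its relatives in the family.

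Cells received 20 nM of ZNF148 siRNA (siZNF148) or of nontargeting siRNA (siControl), so every group was transfected. In growth media, siControl and siZNF148 cells were collected subconfluent at 24 h and confluent at 48 h and 96 h. In differentiation media, siControl and siZNF148 cells were collected confluent at 48 h and 96 h, counted from the change of media, so equal hours in both media are not equal times after transfection. Each of the 10 groups had 3 arrays, apart from siControl at 96 h in growth media, which had 2. The labels call the arrays biological replicates of 1 cell line, so the p-values measure the spread between cultures of that line. A whole culture was measured, so fewer cells with a transcript and less of it per cell cannot be told apart.

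SOX proteins bind the minor groove of DNA through a shared HMG box and bend it, usually together with a partner factor. They fall into groups by sequence: SOX4 and SOX11 belong to group C, SOX5 and SOX6 to group D, and SOX8 and SOX9 to group E. In muscle, SOX8 marks satellite cells and has been described as a brake on myogenic differentiation, while SOX6 represses slow fibre genes, and SOX9 with SOX5 and SOX6 drives cartilage genes elsewhere. SOX4 and SOX11 are best known from neural and mesenchymal progenitors.

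The 6 arrays at 24 h shared 1 slide and 1 scan day, while later arrays were spread over 3 other slides scanned on another day, so a difference between 24 h and later times of the same siRNA cannot be told apart from slide and scan day, and none was tested. The share of probes well above background ranged from 41.6% to 56.5% between arrays. In growth media ZNF148 itself fell by 1.53, 2.08 and 2.30 on the log2 scale (24, 48 and 96 h). In differentiation media it fell by 2.34 (48 h) and fell by 2.74 (96 h). The muscle markers DES, MYOD1 and MYF5 were well above background on all 29 arrays. The neural crest and Schwann cell marker S100B was above background on no array, and SOX10, the third group E gene and a defining marker of those cells, on 3 of 29. The siControl replicate 1 at 48 h in growth media stood apart, with a CKM value of 16.03 (log2) against 5.83 and 5.91 in replicates 2 and 3, and a MYH3 value of 17.36 against 8.55 and 8.69. The members' differences that rest on that group are given with and without it.

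**Figure D1:**
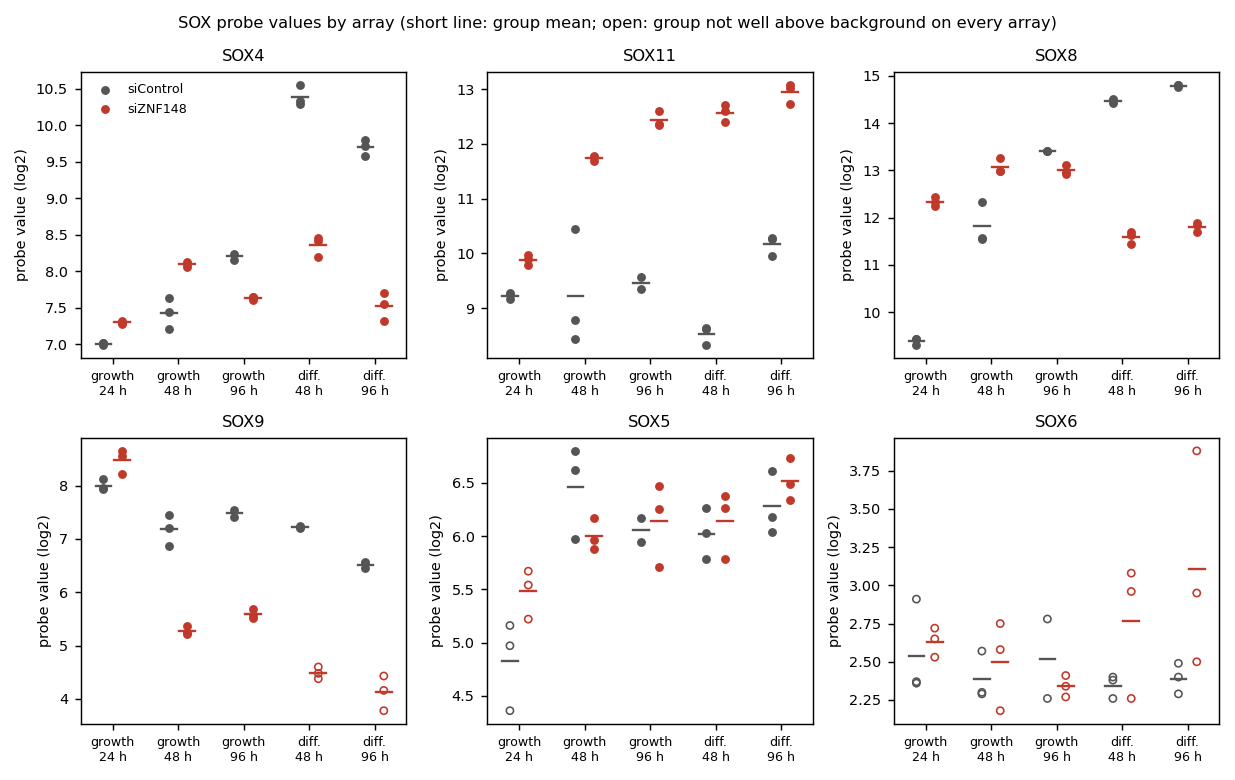
Values of the 6 SOX probes (log2 of the authors' normalized signal, y axis, a separate scale for each gene) on every array, by media and hours, with siControl in grey and siZNF148 in red. SOX4 and SOX8 were highest in siControl cells in differentiation media, SOX11 was higher and SOX9 lower with siZNF148 at every time after 24 h, and open points mark groups not well above background on every array.

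SOX4, the group C factor, is described first, with the sequence before its annotated start, because it was among the 2 members that moved with the media in siControl cells. The RefSeq promoter table used here (GRCh38.p14) matched 3 of the 6 members, SOX4, SOX5 and SOX6. The 250 bases before the start of SOX4 (chr6:21593501-21593750, plus strand) and of SOX5 (chr12:24562492-24562741, minus strand), the tested member with no call, are printed for comparison 5′ to 3′. Capitals mark 5 motifs searched on both strands: the GC box GGGCGG, the C-rich box CCCTCCC, the E-box CAGCTG, and the SOX type motifs ACAAAG and ACAATG.
SOX4: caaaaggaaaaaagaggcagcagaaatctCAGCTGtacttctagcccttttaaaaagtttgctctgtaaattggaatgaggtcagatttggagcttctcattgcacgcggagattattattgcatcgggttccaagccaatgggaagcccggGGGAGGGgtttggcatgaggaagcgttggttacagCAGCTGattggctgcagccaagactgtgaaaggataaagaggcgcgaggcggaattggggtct
SOX5: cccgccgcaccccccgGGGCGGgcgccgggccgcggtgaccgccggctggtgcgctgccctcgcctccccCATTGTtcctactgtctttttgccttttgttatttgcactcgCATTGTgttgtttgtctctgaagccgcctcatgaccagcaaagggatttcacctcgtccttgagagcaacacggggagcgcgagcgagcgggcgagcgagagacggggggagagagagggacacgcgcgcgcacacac

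The SOX4 stretch held CAGCTG 2 times and CCCTCCC 1 time, on the minus strand, and neither the GC box nor a SOX type motif. CAGCTG is a form of the E-box, which myogenic factors such as MYOD1 bind. It was present in 14% of the 35116 promoter stretches of this length in the table, and CCCTCCC, a kind of C-rich sequence that ZNF148 is known to bind, in 24.7%. The SOX5 stretch held GGGCGG 1 time, as did 42.6% of all stretches at least once, and ACAATG 2 times, read on the minus strand, which 9.29% of all stretches held at least once. ACAAAG, in 13.7% of all stretches, was in neither. The SOX4 stretch was 48.8% G and C and the SOX5 stretch 65.6%, against a median of 58.0% over all stretches. The letters alone do not show that a factor binds there.

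SOX4 rose in differentiation media in siControl cells and was lower with siZNF148 there. In siControl cells its probe read 7.63, 7.21 and 7.44 (log2) at 48 h in growth media and 10.29, 10.33 and 10.55 at 48 h in differentiation media. The 2 sets of arrays lay far apart, and the difference was 2.96 (SE 0.102, 7.77-fold, adjusted p = 2.23e-15), or 3.06 without siControl replicate 1 in growth media. At 96 h the siControl arrays read 8.24 and 8.15 in growth media and 9.71, 9.80 and 9.58 in differentiation media, a difference of 1.5 (SE 0.114, adjusted p = 1.27e-09).

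With siZNF148 in differentiation media, SOX4 read 8.45, 8.19 and 8.41 at 48 h and 7.70, 7.31 and 7.55 at 96 h. Every one of these arrays was below every siControl array of the same hour. The log2 differences were -2.04 (SE 0.102, 4.11-fold lower, adjusted p = 2.63e-13) and -2.18 (SE 0.102, 4.52-fold lower, adjusted p = 2.72e-13). In growth media the groups also did not overlap, but the differences were under 2-fold and changed sign between times. The 24 h difference was 0.29 (adjusted p = 0.0399). It was 0.66 by 48 h (adjusted p = 1.24e-05), or 0.76 without siControl replicate 1, and -0.56 by 96 h (adjusted p = 0.000293).

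In growth media the siZNF148 effect on SOX4 differed between 96 h and 48 h by -1.22 (log2, SE 0.153, adjusted p = 1.2e-05), which passed the same thresholds. Under normexp background correction this was -0.97, just under 2-fold, and without siControl replicate 1 at 48 h it was -1.33. The effect in differentiation media minus that in growth media was -2.70 for 48 h (SE 0.144, adjusted p = 7.74e-12), or -2.80 without that array, and -1.61 for 96 h (SE 0.153, adjusted p = 1.27e-07). In the order of its 10 group means, from 7.0 in siControl cells at 24 h to 10.39 in siControl cells at 48 h in differentiation media, the 2 siControl groups in differentiation media stood above all others. The siZNF148 group at 48 h in differentiation media, at 8.35, came next and overlapped siControl cells at 96 h in growth media, at 8.20. Over the 4 groups after 24 h, the siControl means spanned 2.96 on the log2 scale and the siZNF148 means 0.83.

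SOX11, the other group C member, was higher with siZNF148 at every time after 24 h. At 48 h in growth media its arrays read 11.78, 11.77 and 11.69 with siZNF148 and 10.44, 8.44 and 8.79 with siControl. The siControl value of 10.44 belonged to the array with high CKM and MYH3, and the difference of 2.53 (SE 0.296, 5.76-fold, adjusted p = 3.23e-07) was 3.14 without it. Within the 3 slides, each with 1 array of each siRNA, the differences ran from 1.33 to 3.25, and the slide with the lowest one held that siControl array.

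At 96 h in growth media SOX11 read 12.36, 12.60 and 12.34 with siZNF148 and 9.57 and 9.35 with siControl, a difference of 2.97 (SE 0.331, adjusted p = 1.85e-07). At 48 h in differentiation media it read 12.40, 12.60 and 12.71 with siZNF148 and 8.64, 8.61 and 8.33 with siControl. This was its widest gap, at 4.04 (SE 0.296, 16.5-fold, adjusted p = 1.24e-10), and the slides gave 3.97 to 4.10. At 96 h in differentiation media it read 13.08, 13.03 and 12.73 against 9.96, 10.29 and 10.27, a difference of 2.77 (SE 0.296, adjusted p = 7.83e-08). None of these groups overlapped.

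At 24 h SOX11 read 9.97, 9.89 and 9.78 with siZNF148 and 9.26, 9.28 and 9.16 with siControl, which did not overlap. The difference of 0.65 was under 2-fold and did not pass the test (95% interval 0.03 to 1.26, adjusted p = 0.133). Its spread is estimated over all 29 arrays and takes in the siControl array that stood apart, without which the adjusted p was 0.000415 at the same 1.56-fold difference.

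The siZNF148 effect on SOX11 was larger at 96 h than at 24 h in growth media by 2.32 (SE 0.444, adjusted p = 0.000249). Between 96 h and 48 h in growth media it differed by 0.44 (95% interval -0.48 to 1.37, adjusted p = 0.642), and by -0.17 without the siControl array that stood apart. It was larger in differentiation than in growth media at 48 h by 1.52 (SE 0.419, adjusted p = 0.00726), a call that rested on that array: without it the difference was 0.91, under 2-fold. At 96 h the difference between media was -0.20 (95% interval -1.12 to 0.73, adjusted p = 0.816) and did not pass the test.

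SOX11 in siControl cells differed between media by -0.69 (48 h, adjusted p = 0.0718) and 0.71 (96 h, adjusted p = 0.109), of opposite sign, and neither passed the test. Without siControl replicate 1 the first was -0.09, and without siControl replicate 2 at 48 h in growth media it was -1.09 and was called (adjusted p = 0.00334). All 4 siZNF148 groups after 24 h, with means from 11.75 to 12.95, stood above every other group in the order of its levels, and their neighbours at 12.43 and 12.57 overlapped. The lowest mean was 8.53, in siControl cells at 48 h in differentiation media.

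**Figure D2:**
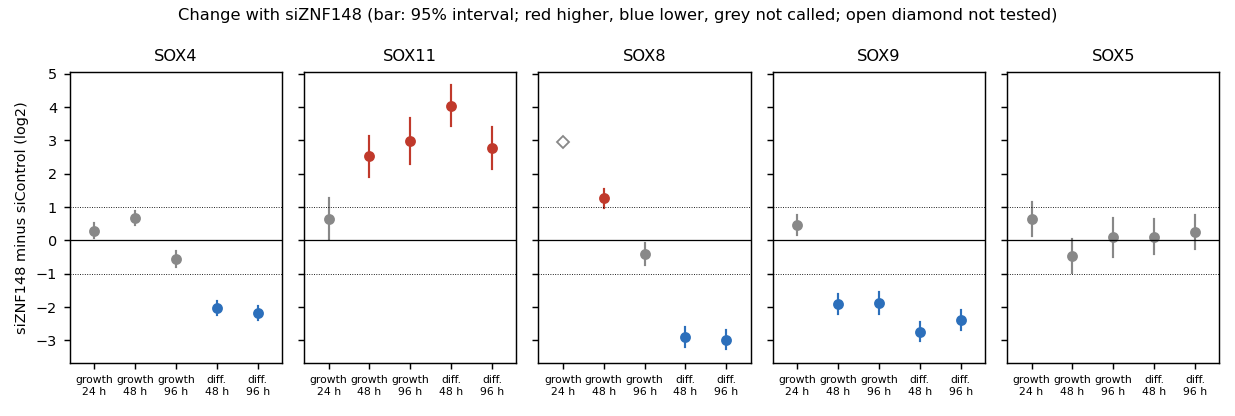
Difference between siZNF148 and siControl (log2, y axis) for the 5 members with a tested probe in the 5 comparisons, with 95% intervals from the fit of all 29 arrays and dotted lines at 2-fold. SOX8 runs from 2.95 at 24 h in growth media, shown with no test, to -2.98 at 96 h in differentiation media, while SOX11 stays above 0 and SOX9 lies below 0 after 24 h.

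SOX8, the group E gene of satellite cells, was higher with siZNF148 at 48 h in growth media and lower with it in differentiation media, with a called difference both ways. At 24 h it read 12.34, 12.44 and 12.24 with siZNF148 and 9.43, 9.31 and 9.43 with siControl, a 7.72-fold difference (2.95 on the log2 scale) that was used to choose it. Among 291 genes higher by the same thresholds, well above background on all 6 arrays and without overlap, this was the third largest rise, after CDKN1C (3.35) and NANOS1 (3.15) and before HEY1 (2.76).

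At 48 h in growth media, which did not enter that choice, SOX8 read 12.99, 13.27 and 12.98 with siZNF148 and 12.34, 11.54 and 11.58 with siControl. All siZNF148 arrays were higher, by 1.26 (SE 0.141, 2.39-fold, adjusted p = 1.75e-07), or 1.52 without the siControl array of 12.34. The slides gave differences of 0.93 to 1.43. At 96 h in growth media the order was turned, with 12.96, 13.11 and 12.93 against 13.41 and 13.42. That difference, -0.41 (SE 0.158, adjusted p = 0.0376), was under 2-fold, and its adjusted p was 0.0608 with slide as a block.

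In differentiation media SOX8 read 11.69, 11.44 and 11.64 with siZNF148 and 14.50, 14.52 and 14.43 with siControl at 48 h. At 96 h it read 11.88, 11.70 and 11.85 against 14.76, 14.81 and 14.80. The gaps between arms were about as wide as at 24 h in growth media but the other way, at -2.89 (SE 0.141, 7.43-fold lower, adjusted p = 1.77e-13) and -2.98 (SE 0.141, 7.89-fold lower, adjusted p = 3.18e-13). Within slides they lay between -3.06 and -2.74 at 48 h and at -3.10 and -2.93 at 96 h.

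In siControl cells SOX8 was higher in differentiation than in growth media, by 2.66 (48 h, SE 0.141, 6.34-fold, adjusted p = 1.94e-12), or 2.92 without siControl replicate 1 in growth media, and by 1.38 (96 h, SE 0.158, 2.60-fold, adjusted p = 4.86e-07). Its siControl group means were 9.39, 11.82 and 13.41 at 24, 48 and 96 h in growth media and 14.48 and 14.79 in differentiation media. The siZNF148 group means were 12.34, 13.08 and 13.00, then 11.59 and 11.81. Over the 4 groups after 24 h the siControl means spanned 2.97 and the siZNF148 means 1.49. The 3 highest groups were siControl groups, none overlapping the next, whereas siControl cells at 48 h in growth media overlapped the siZNF148 groups on both sides, at 11.81 and 12.34.

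The siZNF148 effect on SOX8 at 96 h minus that at 48 h in growth media was -1.67 (SE 0.211, adjusted p = 1.39e-05), or -1.93 without siControl replicate 1 at 48 h. Differentiation minus growth media, the difference of effects was -4.15 at 48 h (SE 0.199, 17.8-fold, adjusted p = 1.9e-12), or -4.41 without that array, and the 96 h value was -2.57 (SE 0.211, adjusted p = 1.93e-08). The change of the effect from 24 h to 96 h in growth media, -3.36, rests on the 24 h value and has no test.

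SOX9, the group E factor of cartilage, was lower with siZNF148 at every time after 24 h. At 48 h in growth media it read 5.23, 5.22 and 5.36 with siZNF148 and 6.87, 7.45 and 7.21 with siControl, and at 96 h 5.68, 5.52 and 5.58 against 7.41 and 7.54. None of these arrays overlapped, and the differences were -1.91 (SE 0.141, 3.75-fold lower, adjusted p = 4.52e-10, or -2.06 without siControl replicate 1) and -1.88 (SE 0.158, 3.68-fold lower, adjusted p = 3.08e-09).

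In differentiation media SOX9 came close to the array's background. At 48 h it read 4.38, 4.48 and 4.6 with siZNF148, of which 2 of 3 arrays were well above background, against 7.24, 7.21 and 7.22 (difference -2.74, SE 0.141, adjusted p = 4.49e-13). At 96 h its siZNF148 values of 4.16, 4.43 and 3.78 were not well above background on any array, while siControl read 6.54, 6.56 and 6.46. On the authors' normalized values SOX9 was therefore at least 4.12-fold lower there (adjusted p = 9.18e-12), a bound that does not hold under normexp. With normexp background correction its 4 differences after 24 h were between -1.20 and -0.83, and those at 48 h in growth media (-0.99) and at 96 h in differentiation media (-0.83) were under 2-fold.

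At 24 h SOX9 was slightly the other way, with 8.65, 8.55 and 8.22 for siZNF148 against 7.93, 7.95 and 8.13 for siControl. The groups did not overlap, and the difference of 0.47 (SE 0.141, adjusted p = 0.0182) was under 2-fold. In growth media the siZNF148 effect at 96 h minus that at 24 h was -2.35 (SE 0.212, 5.10-fold, adjusted p = 1.8e-08), and at 96 h and 48 h in growth media it differed by 0.03 (95% interval -0.42 to 0.47), or 0.18 without siControl replicate 1 at 48 h. Between media the effect differed by -0.83 (48 h, adjusted p = 0.00252, or -0.68 without that array) and -0.51 (96 h, adjusted p = 0.0899), both under 2-fold and both resting on dim siZNF148 values.

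In siControl cells SOX9 was called in neither comparison of the media. It differed by 0.04 at 48 h (95% interval -0.25 to 0.34, adjusted p = 0.884), or -0.11 without siControl replicate 1 in growth media, and by -0.96 at 96 h (SE 0.158, adjusted p = 5.19e-05), just under 2-fold. Leaving out siControl replicate 1 at 96 h in growth media gave -1.02, past that threshold. In the order of SOX9 group means the 4 siZNF148 groups after 24 h were lowest, at 4.13, 4.49, 5.27 and 5.59, with overlap between the lowest 2, and the siZNF148 group at 24 h was highest, at 8.47.

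SOX5, a group D factor that lacks an activation domain of its own, was called in none of the comparisons. Of its 3 probes, 2 were well above background on no array and the third on 26 of 29. Its siControl arrays ran from 4.36 to 6.80 and its siZNF148 arrays from 5.22 to 6.73. The differences with siZNF148 were 0.65 at 24 h (adjusted p = 0.0621), where 2 siZNF148 arrays and 1 siControl array were well above background, then -0.46 (48 h) and 0.09 (96 h) in growth media and 0.11 and 0.24 in differentiation media, with adjusted p from 0.144 to 0.874. The 95% intervals of the last 4 lay between -0.97 and 0.76, so each left out a 2-fold difference. Without siControl replicate 1 the 48 h difference in growth media was -0.71 (adjusted p = 0.0256), still under 2-fold. The differences between media in siControl cells were -0.44 at 48 h, or -0.69 without that array, and 0.22 at 96 h. All neighbours in the order of its levels overlapped, apart from the lowest 2, which were the 24 h groups.

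SOX6, the other group D member and a repressor of slow fibre genes, was not detected. Its single probe was well above background on 0 of 29 arrays, with values from 2.18 to 3.88, so no level or difference can be given for it.

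Counted over the family, limma calls in growth media were 0 of 4 members tested at 24 h, 3 of 5 at 48 h (SOX8 and SOX11 higher, SOX9 lower) and 2 of 5 at 96 h (SOX11 higher, SOX9 lower). At 24 h the differences of these 4 were all under 2-fold, and the methods' Student test called 0. Their adjusted p in limma was 0.0182 for SOX9, 0.0399 for SOX4, 0.0621 for SOX5 and 0.133 for SOX11. The share of all genes at such p-values without the fold limit was not counted, so these values are a description. In differentiation media 4 of 5 were called at both times, SOX11 higher and SOX4, SOX8 and SOX9 lower. Among all 18432 genes tested, 2.44% were higher and 3.03% lower with siZNF148 at 24 h in growth media, 11.7% and 12.2% at 48 h, and 12.3% and 12.4% at 96 h. In differentiation media 15% were higher and 17.2% lower at 48 h, and 10.4% and 12.8% at 96 h. Members were named with earlier results in view, so these shares are a description.

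Between media in siControl cells, 2 of 5 members were called at 48 h and at 96 h, SOX4 and SOX8, both higher in differentiation media. Of all genes, 7.7% were higher and 8.17% lower at 48 h, and 6.79% and 8.27% at 96 h. All 3 slides of the 48 h comparison held both media, and SOX4 differed by 2.89 to 3.08 and SOX8 by 2.09 to 2.96 within them. No slide held both media at 96 h, where a fit with slide as a block gave 1.49 for SOX4 and 1.3 for SOX8. The siZNF148 effect differed between 96 and 24 h in growth media for 22.7% of genes (2 of 4 members tested) and between 96 and 48 h for 5% (2 of 5). It differed between media for 17.1% at 48 h (3 of 5 members) and 12.4% at 96 h (2 of 5).

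**Figure D3:**
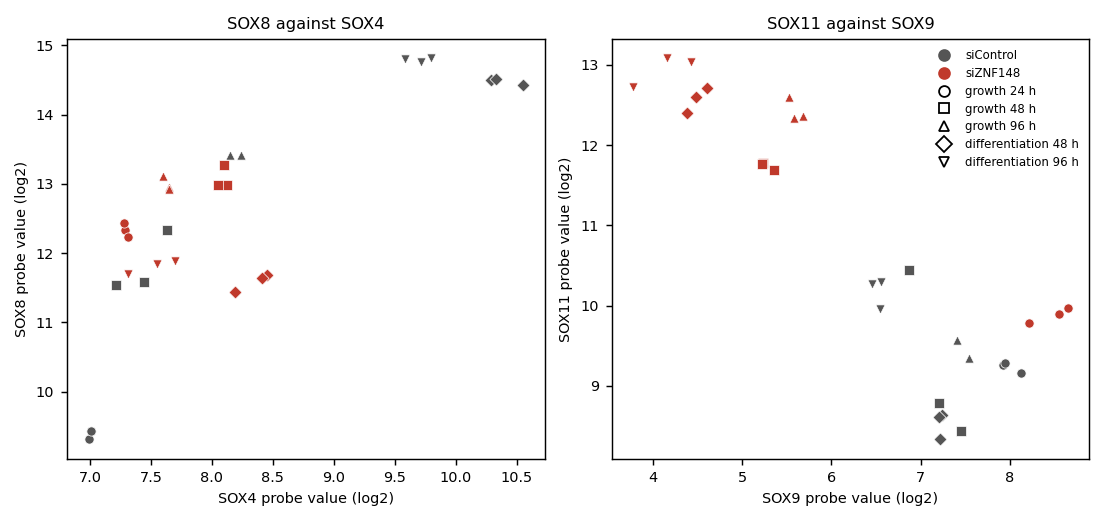
SOX8 against SOX4 (left) and SOX11 against SOX9 (right), each axis the log2 value of that gene's probe, with 1 point per array, siControl in grey, siZNF148 in red and a marker for each media and hour. In siControl cells SOX4 and SOX8 are both highest in differentiation media (Pearson r 0.92 over the 11 arrays after 24 h), and the siZNF148 arrays spread without such a line (r -0.16 over 12 arrays after 24 h).

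Over all 29 arrays SOX4 and SOX8 had the highest correlation of any pair of members, with a Pearson r of 0.80. Over the arrays after 24 h r was 0.81 in all 23, 0.92 in the 11 siControl arrays and -0.16 in the 12 siZNF148 arrays. SOX9 and SOX11 ran opposite to each other, with r of -0.93 over all 23 of these arrays, -0.73 over siControl and -0.62 over siZNF148 arrays. The arrays share groups and slides and are not independent points, so these values only describe the plots of 1 gene against another.

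The genes whose pattern was most like each member, by Pearson correlation over the 29 arrays, differed between members. For SOX4 they were CABLES1, SMARCE1 and KMT2C (r 0.96 each). For SOX8 they were SLC29A1, the nucleoside transporter ENT1 (r 0.95), MORC4 (0.92) and the adhesion molecule VCAM1 (0.92). JADE2 and LASP1 (0.99 each) and LMO3 (0.98) were most like SOX9, and LMO2, IDH2 and DCLK2 (0.98 each) most like SOX11. For SOX5 they were FIBCD1 (0.86), ATP13A3-DT and MMP28 (0.83 each), and over the 23 arrays after 24 h these fell to 0.72, 0.30 and 0.50, while the top gene of each other member was still at 0.95 or above.

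Of 13 other SOX genes with a probe, 8 had a tested probe, most of them dim. SOX12, the third group C gene, was lower with siZNF148 at 96 h in growth media (-1.28, adjusted p = 6.6e-05) and at 48 h in differentiation media (-1.57, adjusted p = 6.61e-07). At 96 h in differentiation media, where no siZNF148 array was well above background, it was at least 1.88-fold lower (adjusted p = 2.99e-08). SOX12 also rose in differentiation media in siControl cells at 48 h, by 1.47 (adjusted p = 3.31e-06), as SOX4 did, and at 96 h differed by 0.13 (adjusted p = 0.735). SOX10 was higher at 48 h in differentiation media, at least 1.08-fold (adjusted p = 0.017), on 2 siZNF148 arrays above background and no siControl array. With normexp none of these other SOX calls passed.

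SOX13, the third group D gene, had 2 probes that disagreed. The brighter one, by which it is counted, differed by -0.38 to -0.14 over the 5 comparisons and was not called. The dimmer one was higher with siZNF148 at 24 h in growth media by 0.94 (adjusted p = 0.000319) and lower in differentiation media, with differences of -3.17 at 48 h and -3.55 at 96 h (adjusted p = 1.22e-12 and 5.53e-13). SOX3, SOX7, SOX15, SOX18 and SOX30 were called in none of the 5 comparisons. The median change of the 8 genes lay between -0.04 and 0.25, and that of all genes between -0.06 and 0.

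Genes that SOX factors are known to act on were followed as lists. Of 11 cartilage genes tested, typical of SOX9 with SOX5 and SOX6, 4 were higher and 1 lower with siZNF148 at 96 h in growth media. Of all genes 12.3% were higher and 12.4% lower there. The list median was 0.78, against -0.03 for all genes. COL9A3 rose by 2.68 (adjusted p = 1.2e-07) and COMP by 2.63 (adjusted p = 0.0141). COL2A1, the main cartilage collagen and a classic SOX9 target, was called higher there with a log2 value of 3.83 against 2.32 (adjusted p = 0.000128), with 2 siZNF148 arrays and no siControl array above background. MATN3, the one gene lower there, differed by -1.51 there (adjusted p = 4.62e-06), after -2.06 at 48 h (adjusted p = 1.28e-08). MATN3 was also lower at 48 h in differentiation media, by the list's largest fall (-3.29, adjusted p = 2.9e-12), with 1 of 3 siZNF148 arrays above background. In growth media at 48 h, 2 of the 11 were higher and MATN3 lower, where 11.7% of all genes were higher and 12.2% lower. In differentiation media COL2A1 alone was higher at 48 h beside the fall of MATN3, and by 96 h COL2A1 and COL9A3 were higher and none lower. Of all genes 15% were higher and 17.2% lower at 48 h in differentiation media, and 10.4% and 12.8% at 96 h. At 24 h 1, the dim CNMD, was lower, as were 3.03% of all genes. Over the 5 comparisons 13 calls were made, and 3 with normexp.

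Of the 6 listed neural genes that group C factors are described to act on, none was called at 24 h. In each comparison after 24 h 3 were higher with siZNF148, where 10.4% to 15% of all genes were higher. At 96 h in growth media STMN2, a microtubule regulator of neurons, was at least 38.2-fold higher (adjusted p = 4.07e-08), DCX at least 17.0-fold (adjusted p = 3.93e-06) and MAP2 at least 2.87-fold (adjusted p = 2.24e-10), each above background on all 3 siZNF148 arrays and no siControl array. TUBB3, a neuronal tubulin that these myoblasts also express, was lower at that time, with a difference of -1.38 (adjusted p = 1.98e-07). It was also lower at 48 h in growth media (-1.37, adjusted p = 4.11e-08) and in differentiation media (-1.24, adjusted p = 8.81e-08), and at 96 h in differentiation media it differed by -0.08 (adjusted p = 0.691). The list median at 96 h in growth media was 1.93, against -0.03 for all genes. Over the 5 comparisons 15 calls were made for this list, and 10 with normexp.

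Slow fibre genes, which SOX6 is known to repress, and fast fibre genes were higher together with siZNF148. At 96 h in growth media 9 of 9 slow and 9 of 10 fast fibre genes were higher, with medians of 6.52 and 5.40. Of all genes 12.3% were higher there, and from 10.4% to 15% in each comparison after 24 h. Slow myosin MYH7 rose by 8.34 (adjusted p = 7.17e-05), MYH7B by 8.31 and the calcium store protein CASQ2 by 7.87, and of the fast genes troponin TNNC2 rose by 8.15 (adjusted p = 0.000155), MYL1 by 7.39 and TNNT3 by 7.33. At 24 h none of either list was called. At 48 h in differentiation media 9 of 9 slow and 9 of 10 fast genes were higher, and at 96 h 8 of each. In these differentiation media arrays SOX4, SOX8 and SOX9 were lower and SOX11 was higher. At 48 h in growth media 9 of 9 slow and 9 of 10 fast genes were also higher. SOX8 was called higher there (1.26) and SOX4 differed by 0.66. At 96 h in growth media neither SOX4 (-0.56) nor SOX8 (-0.41) was called. SOX9 was lower and SOX11 higher at both of these growth media times. SOX6 was below background on every array, and whether any SOX gene acts on the fibre genes here was not tested.

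**Figure D4:**
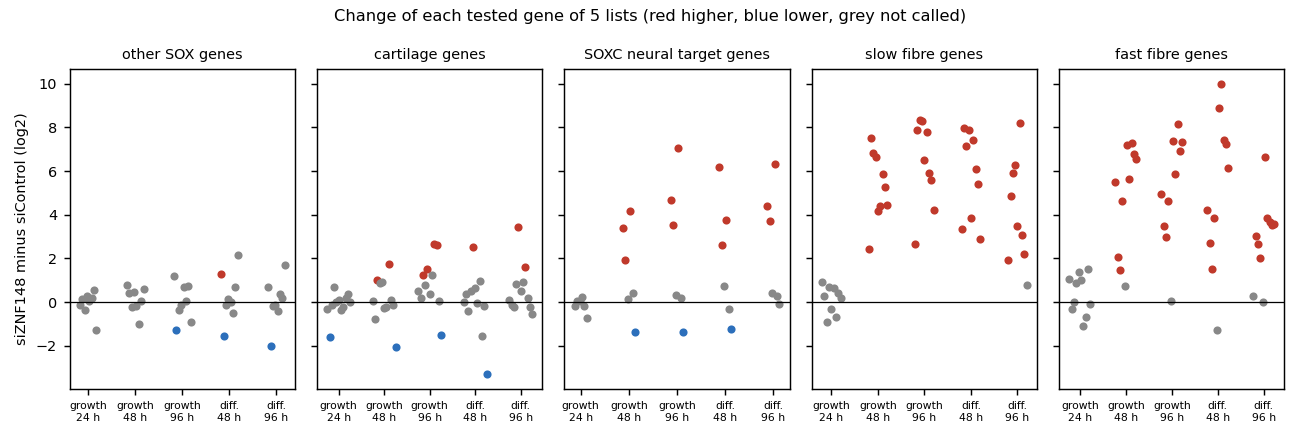
Difference between siZNF148 and siControl (log2, y axis) for each tested gene of 5 lists in the 5 comparisons, 1 point per gene, red where higher, blue where lower and grey where not called. Other SOX genes have medians from -0.04 to 0.25, and cartilage genes reach a median of 0.78 at 96 h in growth media. Slow and fast fibre genes have medians of 0.3 and 0.45 at 24 h, where their points spread from -1.11 to 1.53 and none is called. Afterwards most of them are higher, with medians of 6.52 and 5.40 at 96 h in growth media.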

How the data were processed

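RNA of 29 LHCN-M2 cultures in 10 groups, taken from the labels, was hybridized to 1-colour Agilent arrays. Per the file headers the spots were read with Agilent Feature Extraction 10.7.3.1. The authors deposited background-subtracted spot intensities and a matrix of quantile-normalized log2 values. Each matrix column matched its own array best (correlation at least 0.9952 across probes). The matrix log2 values are used here. Its 140 control probes were left out.

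Probes were named through RefSeq accessions on GRCh38.p14 (31104 probes). Array headers name hg19 (14) or no build (15), so no probe positions are given. Probes passed the filter if well above background on 2 or more arrays. The 38839 that passed went into a single limma 3.58.1 fit (R 4.3.3) of 10 group means with two-sided tests, and a call needed over 2-fold and an adjusted p (Benjamini-Hochberg) under 0.05. The tested probe with the highest mean stands for its gene. Intervals are 95%. Where no array of a group was well above background, a bound is given. It puts each array of that group at the lowest value well above background there, or at its own value if higher. Such bounds hold for the matrix values only. Bulk depth does not apply to arrays, and the small number of arrays limits the precision.

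Members and lists were chosen with earlier results of these data known. The genes named are the markers of muscle and of Schwann and neural crest cells (DES, MYOD1, MYF5, CKM, MYH3, S100B, SOX10), the 6 members, ZNF148, the 3 genes most like each member, all other SOX genes tested, and of each other list up to 3 genes with the largest called change at 96 h in growth media. CNMD, COL2A1, MATN3 and TUBB3 were named after their values were seen, as were HEY1, CDKN1C and NANOS1 beside SOX8 at 24 h.

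Alternatives were scanner signals with quantile or 75th percentile scaling, normexp (offset 50, on median signals), no filter or a stricter one, the arrays of 1 comparison alone, eBayes with trend and robust settings, weighted arrays, blocks for replicate number or slide, each array left out, the methods' Student test, no fold threshold, and the mean over probes.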

Additional observations from a re-analysis of the deposited data

Results flagged for a closer look

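For 4 members the effect of siZNF148 differed between times or media by a test of the difference itself (limma, contrast of contrasts). In SOX4 it differed by -1.22 between 96 and 48 h in growth media, and between differentiation and growth media by -2.70 at 48 h and -1.61 at 96 h. In SOX8 the same differences were -1.67, -4.15 and -2.57. In SOX9 the effect differed by -2.35 between 96 and 24 h in growth media. In SOX11 it differed by 2.32 between 96 and 24 h in growth media and by 1.52 between media at 48 h, and the latter was 0.91 without siControl replicate 1 at 48 h in growth media. With slide as a block these 9 differences kept their direction and their calls. Those between media at 48 h could not change in size, because the arrays of each of those groups were spread evenly over the same slides. Of all genes, the effect differed for 22.7% between 96 and 24 h in growth media and for 5% between 96 and 48 h. Between media it differed for 17.1% at 48 h and 12.4% at 96 h. The share of genes called in any of these was not counted. The part of cell density or time since transfection was not tested.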

How the results depend on the processing

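No called difference of a member changed sign under the alternatives run. Calls were lost for SOX9 at 48 h in growth media and at 96 h in differentiation media, and for the SOX4 effect at 96 against 48 h, under normexp, and for the SOX11 effect between media at 48 h with only the arrays of that comparison (1.52, adjusted p = 0.0956) or without siControl replicate 1 at 48 h. Normexp background correction gave 3 calls for cartilage genes in place of 13 and 0 for other SOX genes in place of 4. It gave 10 for the neural genes in place of 15 and 30 for fast fibre genes in place of 35. It also gave 1 member in place of 2 whose siZNF148 effect differed between 96 and 48 h in growth media. Dropping the fold threshold added, in growth media, SOX4 and SOX9 at 24 h, SOX4 at 48 h, and SOX4 and SOX8 at 96 h. The share of all genes called without that threshold was not counted, so these added calls are a description. The cause of the differences between settings was not tested. Without siControl replicate 1 at 48 h in growth media there were 5 calls for other SOX genes in place of 4, 36 for fast fibre genes in place of 35, and as many as before for the other 3 lists.

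With the replicate number as a replicate block, the members called were 0, 3 and 2 at 24, 48 and 96 h in growth media and 4 and 4 in differentiation media, as without it, and no other call changed. The correlations of same-numbered arrays ran from -0.16 to 0.12, so the numbers were not taken as pairs. The numbers are those of the sample titles. For the siZNF148 arrays at 48 h in growth media, the comparison of the -0.16, the sample descriptions number the replicates from 3 to 5, so this check and the block rest on the titles.

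Differences near 0 turned sign. For SOX9 between media in siControl cells at 48 h, array weights gave -0.09 and normexp -0.03, and leaving out arrays -0.11 to 0.18. For its siZNF148 effect at 96 against 48 h in growth media, normexp gave -0.07, slide as a block -0.03 and left-out arrays -0.11 to 0.18, and between media at 96 h normexp gave 0.22. For SOX5, slide as a block gave -0.02 between media in siControl cells at 96 h and -0.14 for siZNF148 at 96 h in growth media, where normexp gave -0.03 and left-out arrays -0.08 to 0.30. At 48 h in differentiation media normexp gave -0.02 and left-out arrays -0.01 to 0.30, and for the siZNF148 effect between media at 96 h left-out arrays gave -0.06 to 0.33 and slide as a block 0.45. For the SOX11 effect at 96 against 48 h, array weights, whose estimation stopped before full convergence, gave -0.01 and left-out arrays -0.17 to 0.83.

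Of the 3 genes most like each member, Spearman correlation kept 1 for SOX5, SOX8, SOX9 and SOX11 and 0 for SOX4, and the 23 arrays after 24 h kept 1 for SOX4, SOX5 and SOX8 and 0 for SOX9 and SOX11. SOX5, SOX6, SOX9 with siZNF148 in differentiation media and most other SOX genes were limited by signal close to background.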
